A study of Mus musculus with 12 samples.

Results

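Genes of inhibitory signalling in myeloid cells were followed in bone marrow-derived macrophages (BMDMs). They were the receptors Siglece, Siglec1, Pilra, Sirpa, Pirb, Lair1, Cd300a, Clec12a and Cd200r1, and the phosphatase Ptpn6. These were 10 of the 12960 genes in the count table, and all 10 passed the filter on low counts. The members were picked by gene symbol, and Siglece and Pilra were picked on their lower counts with the activator in WT cells. Marrow of WT and AMPKβ1-/- mice was grown for a week in L929 medium, a source of the macrophage growth factor M-CSF. The AMPKβ1-/- mice are knockouts of Prkab1, which encodes the β1 subunit of the AMP-activated protein kinase (AMPK). Cells of each genotype were given PF-06409577 (PF), an activator that binds complexes with the β1 subunit, at 10 µM for 6 h, or vehicle (DMSO at 0.1%), which gave 4 groups of 3 RNA libraries. How many mice stood behind the 3 libraries of a group was not given, so the p-values here measure the spread between these libraries, which may be technical.

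Inhibitory receptors hold back phagocytosis, cytokine release and killing by myeloid cells. Most carry an immunoreceptor tyrosine-based inhibitory motif (ITIM) in the tail inside the cell. When the tyrosine of this motif is phosphorylated by Src family kinases, the tail recruits the phosphatases SHP-1, the product of Ptpn6, and SHP-2, or the lipid phosphatase SHIP1. Siglecs are lectins that read sialic acid on the surface of host cells as a sign of self. Paired receptors such as PILRα and PILRβ share similar outer domains, and the inhibitory one carries an ITIM while the activating one signals through the adaptor DAP12, the product of Tyrobp.

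The libraries held between 8935609 and 14358180 counts, and values are given as CPM, counts relative to library size scaled by TMM, on which 3 counts in a library are worth 0.196 to 0.321 CPM. Prkab1 ranged from 37.3 to 45.3 CPM in the WT libraries and from 6.05 to 9.42 CPM in the AMPKβ1-/- libraries. All 9 macrophage markers checked were measured, and they summed to 25400 to 29900 CPM in each library. Granulocyte, dendritic, fibroblast and erythroid markers, of which 5 of 8, 4 of 6, 4 of 5 and 1 of 4 were in the table, each summed to at most 5.47 CPM, and none of the 6 lymphoid markers was in the table. Kit, the only one of 4 mast cell and eosinophil markers in the table, ranged from 2.49 to 4.02 CPM in WT cells with PF and from 0.424 to 1.59 CPM in the other groups. Its part in the results was not tested. The groups also differed in how counts followed GC content. Per 10 points of GC, log2 CPM changed by 0.341 to 0.685 in WT libraries with vehicle, by −0.054 to 0.349 in WT libraries with PF and by −0.488 to −0.094 in AMPKβ1-/- libraries. Fold changes are therefore also given with an offset for GC content and gene length where that matters. In bulk RNA, fewer cells with a transcript and less of it per cell cannot be told apart.

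The inhibitory motif was searched in the coding sequence of each gene's longest complete transcript. The ITIM was a codon for serine, isoleucine, valine or leucine, any codon, a tyrosine codon, any 2 codons, and a codon for isoleucine, valine or leucine. The ITSM, a switch motif that often follows it, was threonine, any codon, tyrosine, any 2 codons, and valine or isoleucine. Both were counted after the last stretch of 19 residues hydrophobic enough to span the membrane. Of 9266 mouse genes with such a stretch, 27.7% held an ITIM match there and 3.37% an ITSM match. Siglece held 1 ITIM and 1 ITSM among the 2 tyrosines of its 89-residue tail, and Pilra held 1 of each among the 2 tyrosines of its 81-residue tail. Sirpa and Pirb held 3 ITIM matches each, and Lair1 and Cd300a held 2 each. Siglec1 had no tyrosine in its tail of 32 residues, and Cd200r1 had 3 tyrosines but no match in its tail of 59 residues. Clec12a is turned the other way in the membrane, with its tail at the start of the protein, where the tyrosine codon is codon 7, so its 3 matches after the stretch lie in the outer part. A match is a description of the letters only. The codons of these motifs are shown because they carry what most of the receptors share and Siglec1 and Cd200r1 lack. They are written 5′ to 3′ on the coding strand, from GENCODE M21 on GRCm38, with the tyrosine codon in capitals.
Siglece ITIM (chr7:43651585-43651602, minus strand, exon 7, codon 432): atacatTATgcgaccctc
Siglece ITSM (chr7:43651516-43651533, minus strand, exon 7, codon 455): acggagTACtcagagata
Pilra ITIM (chr5:137823571-137823588, minus strand, exon 7, codon 267): atcgtgTATgcttccatc
Pilra ITSM (chr5:137823484-137823501, minus strand, exon 7, codon 296): actgtgTACtccatcgta
Sirpa ITIM (chr2:129629954-129629971, plus strand, exon 9, codon 440): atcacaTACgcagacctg
Pirb ITIM (chr7:3712786-3712803, minus strand, exon 15, codon 794): gtgaccTATgcccagctg
Lair1 ITIM (chr7:4009790-4009807, minus strand, exon 8, codon 228): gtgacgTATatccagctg
Cd300a ITIM (chr11:114899846-114899863, plus strand, exon 6, codon 262): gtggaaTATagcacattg
Clec12a ITIM (chr6:129350433-129350450, plus strand, exon 1, codon 7): attgttTATgcaaatctc

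Levels of different genes were compared per length, as counts per kilobase of gene model scaled to the same total in every library. In WT cells with vehicle the order ran from Sirpa at 2360 ± 254 (SD, n = 3) to Pilra at 6.87 ± 1.6. Pirb at 727 ± 35.9 and Ptpn6 at 722 ± 2.65 were next to Sirpa, and their libraries overlapped. Cd300a was 303 ± 4.42, Siglec1 was 183 ± 48.6 and Clec12a was 144 ± 28.6 on the same scale. The libraries of Siglec1 and Clec12a overlapped, and with the longest transcript as the length Clec12a stood above Siglec1, at 187 against 155. Lair1 was 27.4 ± 5.37, Siglece was 18.7 ± 0.892 and Cd200r1 was 8.34 ± 1.68, and the libraries of Cd200r1 and Pilra overlapped. The receptor of CD47 and the shared phosphatase were thus among the abundant transcripts, while Siglece, Cd200r1 and Pilra were among the scarce ones. On this scale the order of the top 3 and the last place of Pilra were the same in the other 3 groups. With the longest transcript as the length, Ptpn6 at 664 stood above Pirb at 644 in WT cells with vehicle, and Clec12a stood above Cd300a in WT cells with PF, at 223 against 214, and in AMPKβ1-/- cells with vehicle, at 334 against 208. In WT cells with PF, Cd200r1 at 16.1 ± 5.11 stood above Siglece at 8.38 ± 1.19, and Clec12a at 172 ± 22.4 stood above Siglec1 at 123 ± 5.63, with no overlap for either pair. In AMPKβ1-/- cells with vehicle Siglece at 22.3 ± 1.06 overlapped both Lair1 at 32 ± 7.41 and Cd200r1 at 19.7 ± 3.76. In AMPKβ1-/- cells with PF Cd200r1 at 26.1 ± 3.48 and Siglece at 23.1 ± 3.5 overlapped, and Clec12a at 286 ± 21.8 stood above Cd300a at 252 ± 1.61.

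**Figure D1:**
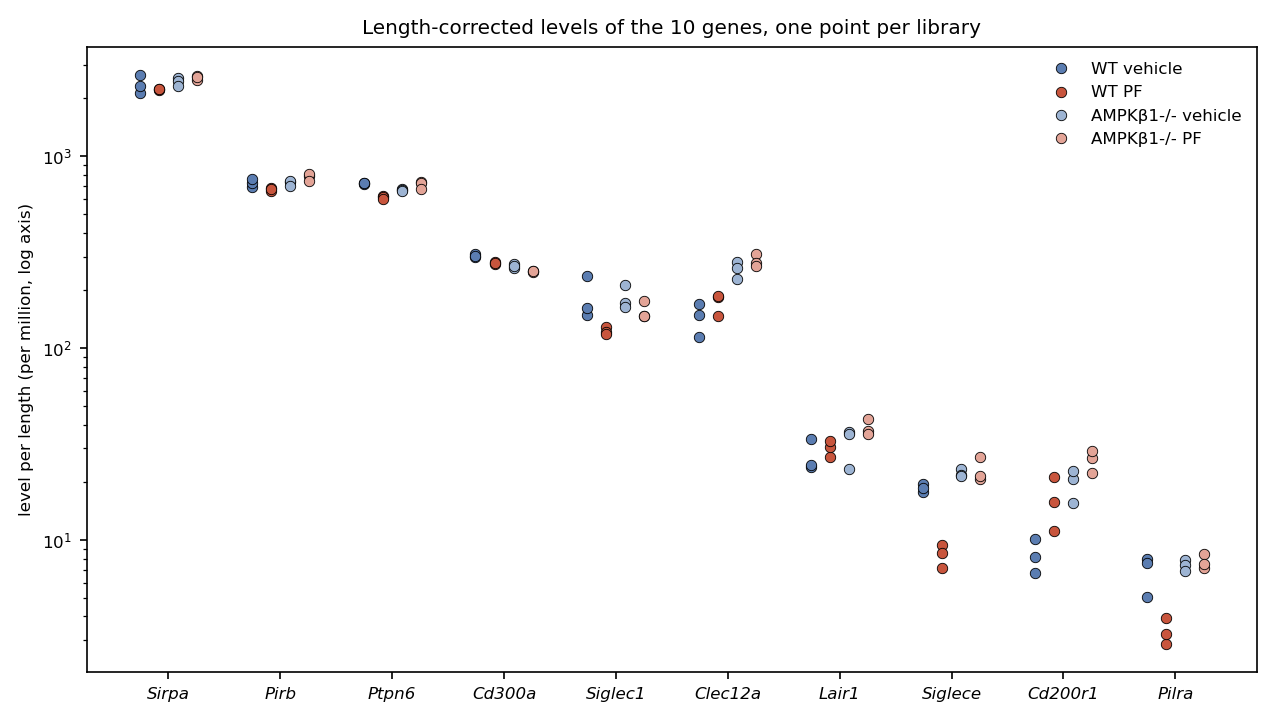
Level per length of the 10 genes (counts per kilobase scaled to the same total in every library, log axis), with one point per library and a colour per group. Sirpa is the highest in every group, and Siglece moves from 18.7 in WT cells with vehicle to 8.38 in WT cells with PF.

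Siglece encodes Siglec-E, the main ITIM-bearing Siglec of mouse neutrophils and macrophages. In WT cells with vehicle it was measured at 13.9, 11.6 and 11.9 CPM, from 130, 126 and 120 counts. With PF the WT libraries gave 4.72, 6.08 and 5.23 CPM, from 55, 65 and 68 counts. The highest WT library with PF was thus below the lowest with vehicle. The AMPKβ1-/- libraries gave 12.8, 11.7 and 11.9 CPM with vehicle and 14.5, 11.2 and 11.2 CPM with PF. In CPM these groups overlapped each other and the WT libraries with vehicle. Per length, AMPKβ1-/- libraries with vehicle gave 21.6 to 23.5 and WT libraries with vehicle 17.9 to 19.6, with no overlap. The log2 difference between the genotypes with vehicle was −0.04, and 0.42 with the GC and length offset, so it depended on the scale. The log2 fold change with PF was −1.23 (SE 0.16) in WT cells, which left 0.428 of the vehicle level, and it was −1.10 with the GC and length offset. Leaving out any 1 library kept it between −1.32 and −1.14. This contrast chose the gene, so no test is given for it.

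Pilra encodes PILRα, the inhibitory member of a receptor pair. WT libraries with vehicle gave 9.41, 8.31 and 5.37 CPM, and WT libraries with PF gave 4.37, 3.09 and 3.31 CPM, so that the groups did not overlap although WT vehicle library 3 came near. The counts behind these values ran from 33 to 90. The AMPKβ1-/- libraries gave 7.11, 6.72 and 6.36 CPM with vehicle and 7.58, 6.52 and 6.51 CPM with PF, within the range of the WT libraries with vehicle. The log2 fold change with PF in WT cells was −1.10 (SE 0.21), and −1.12 with the offset. It lay between −1.297 and −0.932 when any 1 library was left out. This value also chose the gene and has no test.

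The activating partners of PILRα were also scarce. Per length, Pilrb1 was 3.96 ± 1.21 and Pilrb2 4.37 ± 0.822 in WT cells with vehicle. Both means were below that of Pilra, but their highest libraries, at 5.36 and 5.28, overlapped its lowest, at 5.04. In WT cells with PF Pilrb2 at 3.37 ± 0.897 overlapped Pilra at 3.36 ± 0.545. Pilrb2 at 7.53 ± 0.913 also overlapped Pilra at 7.4 ± 0.461 in AMPKβ1-/- cells with vehicle. In CPM, Pilrb1 gave 2.35, 3.69 and 2.29 CPM in WT cells with vehicle and 1.29, 2.25 and 0.846 CPM with PF, which came from 40 counts at most. Its log2 fold change of −0.97 (SE 0.34) did not pass the test (edgeR adjusted p = 0.0647). Pilrb2 moved from 3.1 ± 0.763 to 2.26 ± 0.507 CPM (log2 fold change −0.44, edgeR adjusted p = 0.224). Tyrobp, the adaptor of PILRβ, was 1150 ± 172 CPM with vehicle and 1300 ± 89.7 CPM with PF (log2 fold change 0.17, edgeR adjusted p = 0.222). Pilra, Pilrb1 and Pilrb2 are similar in sequence, and the counting tool may have divided reads between them, as it may have for Pirb and the Pira genes, Sirpa and the Sirpb1 genes, and Cd200r1 and Cd200r4.

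Siglec1 (chr2:131069220-131086765, minus strand), or sialoadhesin, is a large macrophage lectin with no ITIM that binds sialic acid on other cells. WT libraries with vehicle gave 407, 406 and 589 CPM, and WT libraries with PF gave 331, 303 and 278 CPM. The groups did not overlap, but library 3 with vehicle stood above the other 2. The log2 fold change in WT cells was −0.62 (SE 0.15), −0.42 without that library and −0.31 with the GC and length offset. The AMPKβ1-/- libraries gave 448, 357 and 349 CPM with vehicle and 362, 308 and 294 CPM with PF, and these groups overlapped. Siglec1 had the highest GC content of the 10 genes, at 56.7%.

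Sirpa encodes SIRPα, which binds CD47 on other cells and restrains their engulfment. It was 4160 ± 262 CPM in WT cells with vehicle and 3780 ± 134 CPM with PF, with libraries of 4002, 4022 and 4465 CPM against 3896, 3819 and 3636 CPM. These did not overlap. The difference of −0.14 on the log2 scale became 0.10 with the offset, so its direction depended on that choice. AMPKβ1-/- libraries gave 3662, 3541 and 3392 CPM with vehicle and 3708, 3590 and 3544 CPM with PF, which overlapped. In WT cells its ligand gene Cd47 averaged 213 CPM under both treatments (SD 18.2 and 16.2), but its log2 fold change of 0.00 (edgeR adjusted p = 0.991) became −0.32 with the offset (edgeR adjusted p = 0.00527). Cd200, the gene of the ligand of CD200R1, had 0 to 12 counts in a library, at most 1.123 CPM, did not pass the filter on low counts and is not compared.

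Pirb encodes PIR-B, a receptor of MHC class I molecules. It gave 1183, 1145 and 1178 CPM in WT cells with vehicle and 1090, 1023 and 990.3 CPM with PF, with no overlap. The log2 fold change was −0.18 (SE 0.07), and −0.18 with the offset. AMPKβ1-/- libraries gave 965.5, 965.2 and 935.2 CPM with vehicle and 1015, 1056 and 933.2 CPM with PF, an overlap. Cd300a, a receptor of phospholipids on dying cells, gave 559, 500 and 494 CPM with vehicle and 464, 464 and 433 CPM with PF, a log2 difference of −0.19 (SE 0.07) and of −0.17 with the offset. These small differences thus kept their size under the correction, and neither gene's groups overlapped. Lair1, whose product binds collagen and C1q, gave 69.1, 88.6 and 63.4 CPM with vehicle and 72.8, 79.0 and 80.9 CPM with PF, and these groups overlapped. Clec12a, a C-type lectin that senses uric acid crystals and dead cells, gave 241, 332 and 284 CPM with vehicle and 290.1, 353 and 341 CPM with PF, also with overlap. The log2 differences of Lair1 and Clec12a were 0.07 and 0.20, and −0.19 and −0.15 with the offset. Both have a low GC content, 43.5% and 41.1%. In AMPKβ1-/- cells Lair1 was 51.5, 80.15 and 79.65 CPM with vehicle and 91.65, 80.9 and 74.7 CPM with PF. Clec12a was 372, 454.5 and 431 CPM with vehicle and 495, 452 and 418 CPM with PF. Both genes' groups overlapped, and every AMPKβ1-/- library of Clec12a was above every WT library of it.

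Ptpn6 (chr6:124720707-124738714, minus strand) encodes SHP-1, the phosphatase that ITIM tails recruit. It gave 771, 715 and 699 CPM in WT cells with vehicle and 621, 597 and 556 CPM with PF. The groups did not overlap, and the log2 fold change was −0.30 (SE 0.074), but it was −0.08 with the GC and length offset. AMPKβ1-/- libraries gave 556, 542 and 548 CPM with vehicle and 594, 595 and 529 CPM with PF, and these overlapped. Ptpn6 has a GC content of 54.9%.

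Cd200r1 (chr16:44765736-44794978, plus strand) encodes a receptor without an ITIM, which signals through DOK2 and RasGAP. It was the only member with higher WT libraries with PF that did not overlap those with vehicle. Vehicle libraries gave 8.66, 11.9 and 9.46 CPM, and PF libraries gave 13.4, 18.4 and 23.6 CPM. The log2 fold change was 0.88 (SE 0.21), and 0.52 with the offset. AMPKβ1-/- libraries gave 15.3, 20.3 and 22.8 CPM with vehicle and 25.8, 21.9 and 27.4 CPM with PF, which overlapped. Its GC content is 41.9%.

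**Figure D2:**
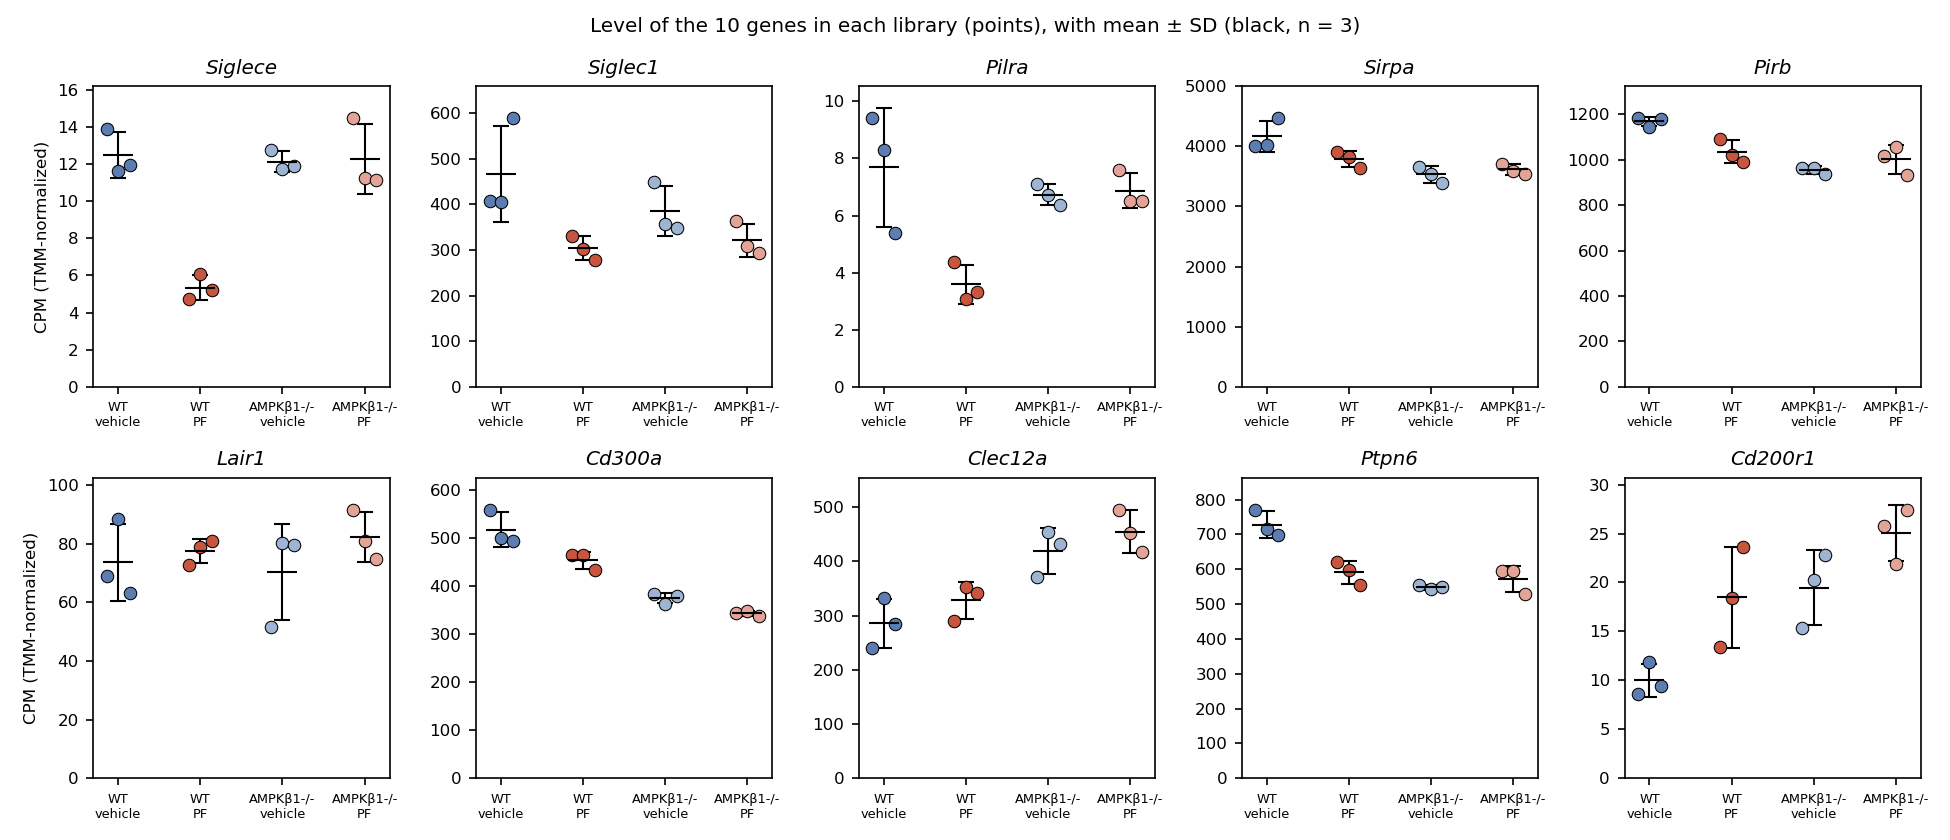
CPM of each gene by library (points, 3 per group), with the mean and SD in black and axes that start at 0. Siglece and Pilra are lowest in the WT libraries with PF, at 5.34 ± 0.69 and 3.59 ± 0.687 CPM.

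Across the members in WT cells, 4 of 10 passed adjusted p below 0.05 with lower counts, beside 8.95% of all 10822 genes tested, and 1 of 10 passed with higher counts, beside 6.99%. The 4 were Siglece and Pilra, which this contrast picked, with Siglec1 and Ptpn6, and the 1 was Cd200r1. WT libraries with PF all lay below those with vehicle for 7 of 10 members, beside 18.1% of all genes, and all above for 1 of 10, beside 14.2%. These counts belong to the contrast the members were picked on, so nothing is read from them. The median log2 fold change was −0.18 over the members and 0.01 over all genes tested. With the offset the total in both directions was 4, with 3 lower and 1 higher, beside 2.4% and 3.99% of all genes. Pirb was added there, and Siglec1 and Ptpn6 were not included. The total was 3 without library 1 of the vehicle group, and 2 without library 2 or without library 3 of the PF group. Over all genes, 756 higher and 969 lower became 186 and 353, 185 and 268, and 129 and 217 in these fits.

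The values that picked Siglece and Pilra came from WT cells, so all 10 members were tested in AMPKβ1-/- cells. The members were still chosen with earlier results of these data known. No member passed with PF (edgeR's quasi-likelihood test), while 0.0554% of all genes passed with higher counts and 0% with lower counts. None of the 10 had an unadjusted p below 0.05, and the smallest was that of Cd200r1 (unadjusted p = 0.0769, adjusted p = 0.982, log2 fold change 0.36 with SE 0.19). DESeq2 and limma-voom also passed 0 of 10. Siglece differed by 0.02 on the log2 scale, with a 95% interval from −0.26 to 0.30, and Pilra by 0.03, with an interval from −0.35 to 0.41. Both estimates thus lay near 0. Siglec1 was −0.26 with an interval from −0.54 to 0.03, and Ptpn6 was 0.06 with an interval from −0.08 to 0.21. Only Cd300a had AMPKβ1-/- libraries that separated, all lower with PF, at 337 to 348 CPM against 363 to 383 CPM. That is 1 of 10 lower, beside 6.28% of all genes, and 0 of 10 higher, beside 8.21%. Its log2 fold change of −0.13 (SE 0.07) did not pass the test (edgeR adjusted p = 0.982).

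**Figure D3:**
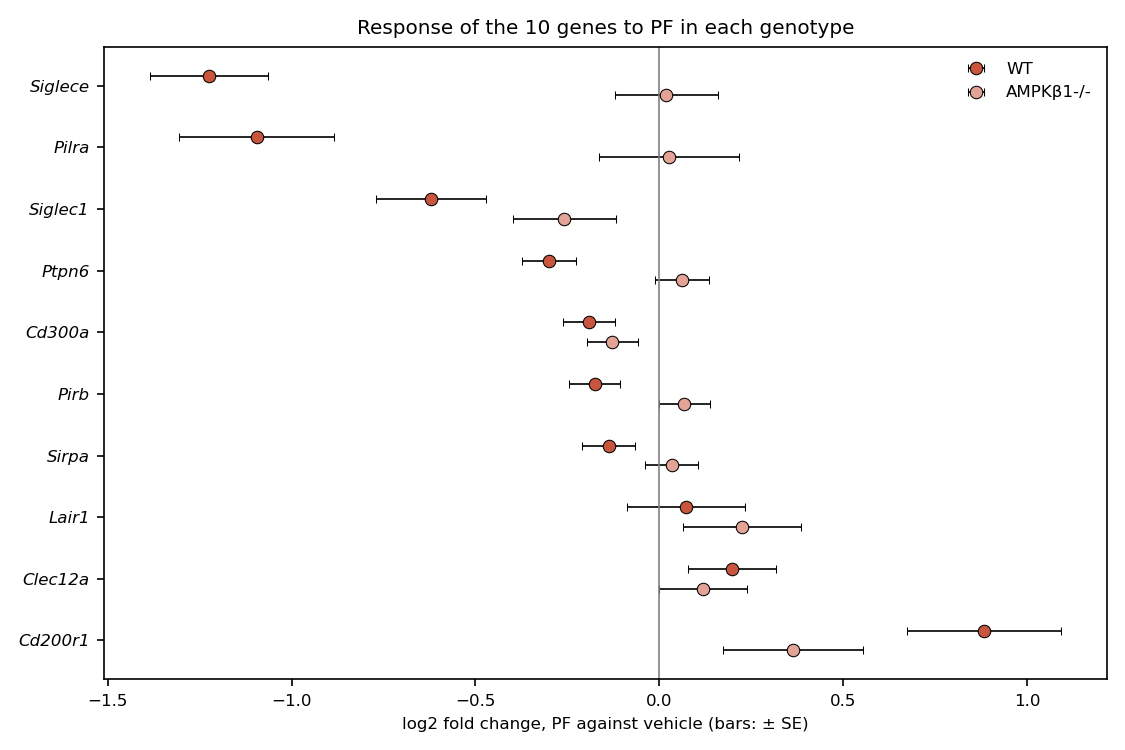
Log2 fold change of each gene with PF against vehicle, in WT cells (dark) and AMPKβ1-/- cells (light), with bars of ± 1 SE. The AMPKβ1-/- values run from −0.26 for Siglec1 to 0.36 for Cd200r1, and those of Siglece and Pilra are 0.02 and 0.03. The WT values of Siglece and Pilra, −1.23 and −1.10, are those the genes were picked on.

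The difference between the responses was fitted as an interaction, WT minus AMPKβ1-/-. It was −1.24 (SE 0.21) for Siglece and −1.12 (SE 0.29) for Pilra, which contain the contrast that picked these genes and are given without a test. Of all genes tested, 0.24% passed with a lower and 0.176% with a higher response in WT cells. Of the 8 members other than Siglece and Pilra, 0 passed in either direction. These 8 were also chosen with earlier results of these data known. By unadjusted p, 2 of these 8 were below 0.05, Ptpn6 at −0.36 (edgeR adjusted p = 0.149) and Pirb at −0.24 (edgeR adjusted p = 0.287). Siglec1 was −0.36 (edgeR adjusted p = 0.446) and Cd200r1 was 0.52 (edgeR adjusted p = 0.423). DESeq2 and limma-voom also passed none of the 8. A difference between the genotypes in how these 8 genes responded was thus not shown.

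AMPKβ1-/- and WT cells were then compared at the same treatment. With vehicle, 29.7% of all genes passed with higher and 30% with lower counts in AMPKβ1-/- cells. Of the 8 members tested, 2 passed as higher and 4 as lower. Clec12a was 0.55 higher (SE 0.12, edgeR adjusted p = 0.00102) and Cd200r1 was 0.95 higher (SE 0.21, edgeR adjusted p = 0.00138) on the log2 scale. Cd300a was −0.47 (edgeR adjusted p = 0.000116), Ptpn6 −0.41 (edgeR adjusted p = 0.000356), Pirb −0.29 (edgeR adjusted p = 0.00245) and Sirpa −0.24 (edgeR adjusted p = 0.01). A share near that of all genes is not a result about these members.

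Most of these values moved with the offset for GC content and length. It placed the median of all genes at 0.12 with vehicle, where it had been −0.03. Clec12a became −0.24 (edgeR adjusted p = 0.0121) and Sirpa 0.17 (edgeR adjusted p = 0.0325), both of the other sign, and Ptpn6 became 0.09 (edgeR adjusted p = 0.242). Cd200r1 became 0.30 (edgeR adjusted p = 0.0903), and Lair1, which was −0.07 before, became −0.69 (edgeR adjusted p = 0.00085). Cd300a at −0.31 (edgeR adjusted p = 0.000262) and Pirb at −0.16 (edgeR adjusted p = 0.0214) kept their direction and their call. Relative to the median gene under the offset, Cd300a was −0.43, Pirb −0.28, Clec12a −0.36, Sirpa 0.05 and Lair1 −0.81. The part of GC content and of length in these moves was not tested apart. Genotype and the libraries' GC slope cannot be told apart here, since every AMPKβ1-/- library had a lower slope than every WT library.

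**Figure D4:**
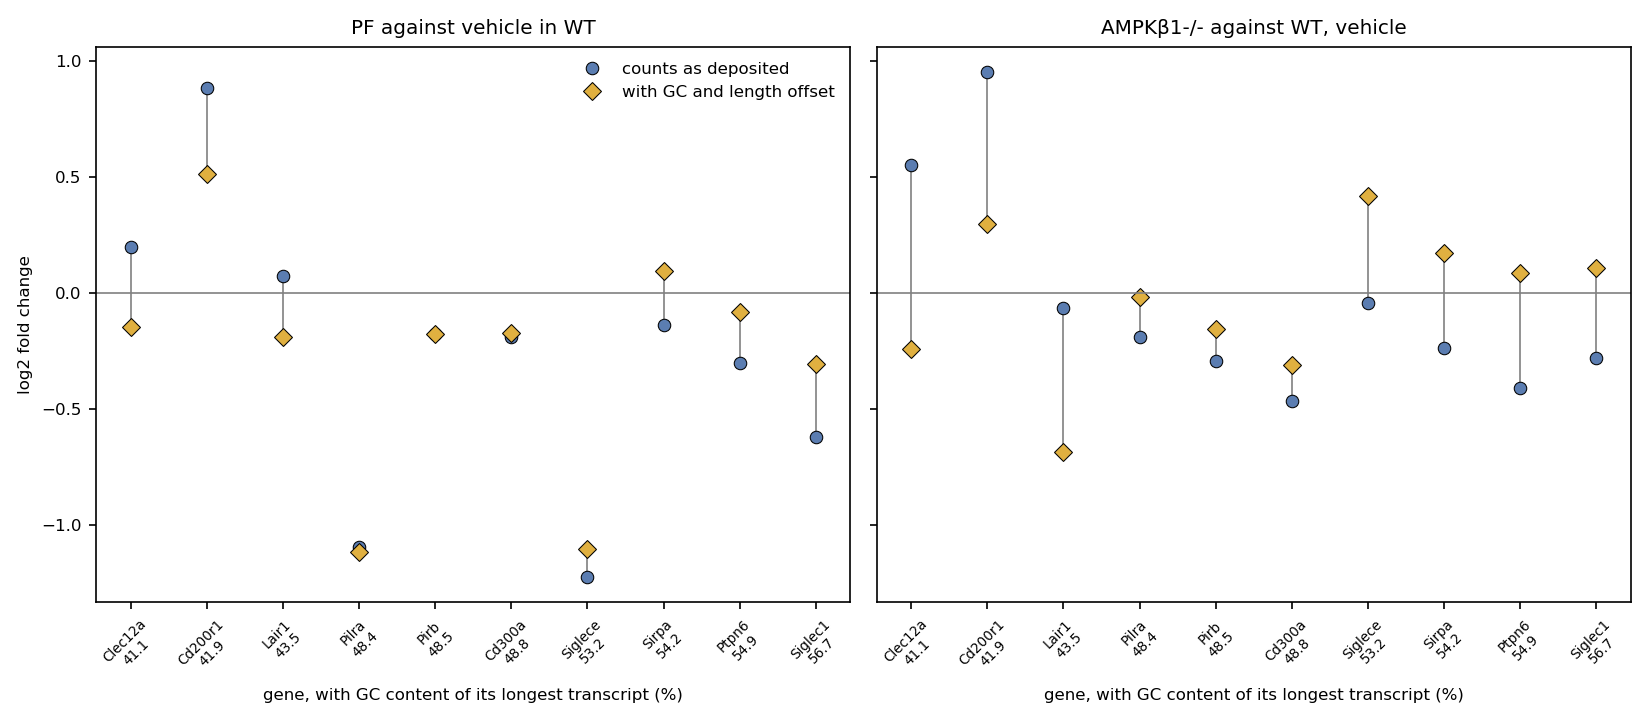
Log2 fold change of the 10 genes, ordered by GC content from 41.1% to 56.7%, for PF against vehicle in WT cells (left) and AMPKβ1-/- against WT cells with vehicle (right), from the counts as deposited (circles) and with the GC and length offset (diamonds). Siglece and Pilra stay near −1.1 on the left, while on the right Clec12a, Sirpa, Ptpn6, Siglec1 and Siglece change sign.

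With PF, 24.1% of all genes passed with higher and 22.9% with lower counts in AMPKβ1-/- cells. Siglece was 1.2 higher (SE 0.15) and Pilra 0.93 higher (SE 0.21) in AMPKβ1-/- cells, a description that uses the libraries on which they were picked. Of the 8 tested members, 1 passed as higher and 1 as lower. Clec12a was higher by 0.47 (edgeR adjusted p = 0.00408) and Cd300a was −0.40 (edgeR adjusted p = 0.000367). With the offset Clec12a was −0.15 (edgeR adjusted p = 0.0975), whereas Cd300a was −0.22 (edgeR adjusted p = 0.0026). Cd200r1 was 0.43 (edgeR adjusted p = 0.0757) and 0.01 with the offset. Cd300a was therefore lower in AMPKβ1-/- cells with either treatment and either fit, from 518 ± 35.7 CPM in WT to 375 ± 10.3 CPM with vehicle and from 454 ± 18.2 to 343 ± 5.35 CPM with PF.

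The members fell into different patterns over the 12 libraries, which share groups, depth and GC slope, so correlations are given as a description. Log2 CPM of Siglece and Pilra correlated at r = 0.877, but both were chosen on their low level in the same WT libraries, which are among these 12. Pirb and Ptpn6 correlated at r = 0.963, and Cd300a and Clec12a at r = −0.929. The genes closest to Siglece were Rassf4 (r = 0.993), Cx3cr1 (r = 0.969), Olfml3 (r = 0.939), Acp2 (r = 0.939) and Glul (r = 0.936). Of these, Cx3cr1, the fractalkine receptor, and Olfml3 had WT log2 fold changes of −1.05 and −0.97, of a size like that of Siglece, and those of Rassf4, Acp2 and Glul were −0.36, −0.15 and −0.40. The genes closest to Pilra were Errfi1 (r = 0.965), Epb41 (r = 0.922), Tmem176b (r = 0.919), Cebpd (r = 0.919) and Pygl (r = 0.908). Their WT log2 fold changes ran from −0.75 for Cebpd to −0.21 for Pygl, and those in AMPKβ1-/- cells from −0.10 for Cebpd to 0.06 for Epb41. The genes closest to Siglece and to Pilra were chosen over libraries that include the WT libraries with PF. Lower WT values with PF are thus partly set by that choice.

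Other genes of inhibitory signalling were counted from lists of general knowledge, in WT cells with PF against vehicle. The lists were drawn up with earlier results of these data known, so their counts are a description. The shares of all genes that passed in this contrast were 8.95% lower and 6.99% higher, and 2.4% lower and 3.99% higher with the offset. A list of 18 kinases, phosphatases and adaptors, called ITIM enzymes and adaptors here, act on or downstream of inhibitory receptor tails, with or without an ITIM. Of these 18, 8 passed as lower and 0 as higher, with a median log2 fold change of −0.29 against 0.01 for all genes. Dok2, an adaptor of CD200R1, moved from 127 ± 7.54 to 77 ± 8.42 CPM (log2 fold change −0.73, edgeR adjusted p = 0.000588). Fgr, a Src family kinase, moved from 32.7 ± 1.69 to 20.5 ± 1.83 CPM (−0.68, edgeR adjusted p = 0.00187), and Dok3 from 149 ± 12.7 to 100 ± 5.88 CPM (−0.57, edgeR adjusted p = 0.00187). Inpp5d, which encodes SHIP1, moved from 650 ± 69.5 to 488 ± 21.3 CPM (−0.41, edgeR adjusted p = 0.00773), and the kinase gene Fes from 488 ± 26 to 364 ± 34.8 CPM (−0.42, edgeR adjusted p = 0.00728). Csk and Inppl1, named here after their values were seen, also passed, at −0.40 and −0.36. With the offset 4 passed as lower, Dok2, Dok3, Fgr and Inpp5d, 1 passed as higher, and the median was −0.09. With only the WT libraries in the fit 5 passed as lower.

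Among 11 other inhibitory receptors, 2 fell and 1 rose in WT cells, with a median of 0.00, counts near the shares of all genes. Vsir, the gene of the checkpoint receptor VISTA, fell from 630 ± 44.6 to 464 ± 20.2 CPM (−0.44, edgeR adjusted p = 0.00259) and Cd72, a lectin-like receptor, fell from 513 ± 15.7 to 392 ± 19.9 CPM (−0.39, edgeR adjusted p = 0.00587). Lilrb4a, another ITIM receptor, rose from 173 ± 39.6 to 284 ± 35.4 CPM (0.71, edgeR adjusted p = 0.0116). With the offset Vsir was −0.21 (edgeR adjusted p = 0.0326), Cd72 and Lilrb4a did not pass, and Clec4a2, named after its values were seen, passed as lower (−0.39, edgeR adjusted p = 0.0235, from 0.00 before). Pecam1 was near the worth of 3 counts, at 0.837 ± 0.214 and 0.401 ± 0.153 CPM, and did not pass (−1.04, edgeR adjusted p = 0.106). Of the 3 other Siglecs tested, Cd33 rose from 8.84 ± 1.8 to 15.7 ± 1.46 CPM (0.83, edgeR adjusted p = 0.00482), and 0.50 with the offset (edgeR adjusted p = 0.0365), while Cd22 was −0.26 (edgeR adjusted p = 0.218) and Mag was −0.25 (edgeR adjusted p = 0.39).

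Of 24 paired and activating receptors with their adaptors, 3 rose and 2 fell, counts near the shares of all genes. Cd200r4, an activating relative of Cd200r1, rose from 12.9 ± 1.77 to 24.7 ± 4.58 CPM (0.94, edgeR adjusted p = 0.00554), and 0.50 with the offset (edgeR adjusted p = 0.0248). Cd300e fell from 6.61 ± 1.02 to 3.19 ± 0.535 CPM (−1.04, edgeR adjusted p = 0.00429), and by a like amount with the offset (−1.14, edgeR adjusted p = 0.0011). The lectin receptors Clec4d and Clec4e rose by 0.44 (edgeR adjusted p = 0.00279) and 0.63 (edgeR adjusted p = 0.0149), and with the offset neither passed and Clec4d was −0.03. Treml4, named after its values were seen, fell from 1.79 ± 0.325 to 0.792 ± 0.0578 CPM (−1.16, edgeR adjusted p = 0.0305), and was −1.12 with the offset (edgeR adjusted p = 0.0518). The number that passed was 3 with the offset and 3 without library 1 or library 3 of the vehicle group, or without library 3 of the PF group. The counts over all genes also fell under each of these alternatives.

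Among 11 genes of protein ligands, 3 fell, beside 8.95% of all genes, all of them chains of C1q, a ligand of LAIR-1. C1qa fell from 1660 ± 186 to 1220 ± 87.2 CPM (−0.44, edgeR adjusted p = 0.00813), C1qb by 0.34 (edgeR adjusted p = 0.022) and C1qc by 0.32 (edgeR adjusted p = 0.0257), and with the offset C1qa and C1qb passed and C1qc did not, while Cd47 and B2m, a chain of MHC class I (−0.35, edgeR adjusted p = 0.00808), passed as lower there. The number was 1 without library 1 of the vehicle group or library 2 or 3 of the PF group, and it was 5 without library 1 of the PF group. Cd24a was 0.59 (edgeR adjusted p = 0.0632). Of 16 genes of the sialic acid pathway, 1 rose and 2 fell, counts near the shares of all genes. The transporter gene Slc35a1 rose from 3.67 ± 0.685 to 6.26 ± 1.64 CPM (0.76, edgeR adjusted p = 0.0261), St3gal1 fell by 0.34 (edgeR adjusted p = 0.0147) and St3gal5, which starts ganglioside synthesis, fell by 0.25 (edgeR adjusted p = 0.0341). None of the 16 passed with the offset. For this pathway the number was also 0 when vehicle library 3 or PF library 2 or 3 was left out, 1 when vehicle library 1 was, and 7 when PF library 1 was. Over all genes, 129 passed as higher and 217 as lower without PF library 3, and 1622 and 1621 without PF library 1. In AMPKβ1-/- cells 0 genes of any of these lists passed the test with PF, beside 0.0554% of all genes higher and 0% lower. That 0 is near the share of all genes.

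**Figure D5:**
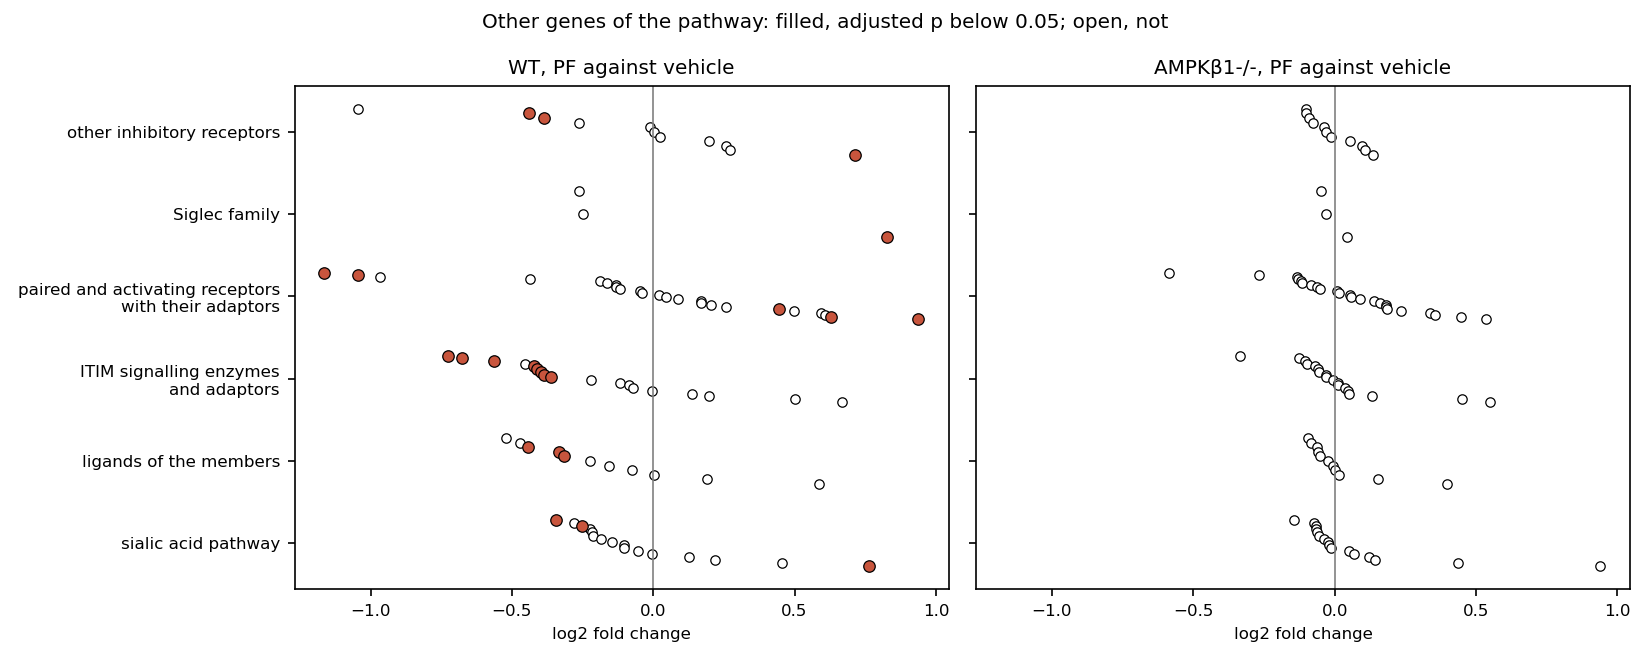
Log2 fold change with PF against vehicle for the tested genes of 6 lists, in WT cells (left) and AMPKβ1-/- cells (right), with genes past adjusted p below 0.05 filled. In WT cells the 8 filled points of the ITIM enzymes and adaptors all lie below 0. In AMPKβ1-/- cells no point is filled, where 0.0554% of all genes passed as higher and 0% as lower.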

How the data were processed

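RNA was sequenced from WT and AMPKβ1-/- BMDMs given vehicle or PF. Trim Galore served the authors for trimming and Salmon for quantification, and the deposited values are estimated counts per gene in whole numbers, with no normalization. The genome build, tool versions and Salmon's bias options are not given in the sources used here. GEO's titles gave the groups, each count column was matched to its group by its name, and 0 columns were left unused.

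Counts were fitted in R 4.3.3 with edgeR 4.0.16 (robust quasi-likelihood test, TMM, filterByExpr by group, 10822 genes) in one model of 4 group means over 12 libraries. The Benjamini-Hochberg threshold was 0.05. An approximate SE came from each fold change and F statistic, and intervals are 1.96 SE to each side. Log2 CPM used a prior count of 2. Alternatives were other scalings, other filters, DESeq2 1.42.0, limma-voom 3.58.1, the libraries of a contrast alone, a log2 threshold of 0.8, each library left out, a block, and an offset for GC content and length from natural splines (5 degrees of freedom) per library. The pipeline was tested on simulated data. GC content, lengths, coding sequences and positions came from GENCODE M21 on GRCm38, which may not be the authors' build. Of the table's genes, 12703 matched by symbol and 194 through a former symbol, while 63 had no match. GC content was known for 99.7% of tested genes. Protein sequences were not used here, so motifs were sought in translated coding sequences, with a mean Kyte-Doolittle hydropathy of at least 1.6 over 19 residues.

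Levels per length used the exon union of each gene. The members and lists were chosen with earlier results of these data known. The text names all members with every library, in each list up to 4 genes with the smallest p in the contrast described, the partners Cd47, Cd200, Pilrb1, Pilrb2, Tyrobp and Inpp5d, the 5 genes most correlated with Siglece and with Pilra, and Prkab1. A gene that passed outside this rule is named as such. One gene of the lists is not reported here by name.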

Additional observations from a re-analysis of the deposited data

Results flagged for a closer look

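Dok2 and Fgr, 2 of the 18 ITIM enzymes and adaptors, passed the test of the interaction term (WT minus AMPKβ1-/-) as lower, beside 0.24% of all genes. Clec4d, 1 of the 24 paired and activating receptors with their adaptors, passed as higher, beside 0.176%. In each of the other lists 0 genes passed. The lists were drawn up with earlier results of these data known. Clec4d did not pass with the offset. The interaction values of Dok2, Fgr and Clec4d with a library left out were not examined. Dok2 differed by −0.77 on the log2 scale (SE 0.13, edgeR adjusted p = 0.0199), from −0.73 in WT cells and 0.05 in AMPKβ1-/- cells. Fgr differed by −0.81 (SE 0.15, edgeR adjusted p = 0.0358), from −0.68 in WT cells and 0.13 in AMPKβ1-/- cells. Clec4d differed by 0.56 (SE 0.11, edgeR adjusted p = 0.0358), from 0.44 in WT cells and −0.12 in AMPKβ1-/- cells. With the GC and length offset the differences were −0.58 for Dok2 (edgeR adjusted p = 0.0343), −0.71 for Fgr (edgeR adjusted p = 0.0406) and 0.31 for Clec4d (edgeR adjusted p = 0.504).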

How the results depend on the processing

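The number of members past the test was 5 in WT cells and 0 in AMPKβ1-/- cells. It was 6 and 4 between the genotypes with vehicle and with PF, and 1 in the interaction. These counts include Siglece and Pilra, which were chosen on the WT values. The 1 in the interaction was Siglece, so nothing is read from it. With a log2 threshold of 0.8 these were 3 in WT cells and, between the genotypes, 1 with vehicle and 2 with PF. With the GC and length offset they were 7 between the genotypes with PF and 2 in the interaction. Leaving out each library gave 2 to 6 in WT cells, 0 to 0 in AMPKβ1-/- cells, 6 to 7 and 4 to 5 between the genotypes, and 0 to 2 in the interaction, where it was 0 when library 3 of WT PF, library 2 or 3 of AMPKβ1-/- vehicle, or library 1 or 2 of AMPKβ1-/- PF was left out, and 2 when library 3 of WT vehicle or library 1 of WT PF was. The list counts, whose alternatives were chosen after seeing the data, moved with the offset to 3 (paired receptors), 5 (ITIM enzymes) and 0 (sialic acid), and with the WT libraries alone to 5 (ITIM enzymes), 1 (ligands) and 0 (sialic acid). Leaving out each library gave 3 to 5 paired receptors, 6 to 10 ITIM enzymes, 1 to 5 ligands and 0 to 7 sialic acid genes. The counts over all genes moved as well. In WT cells they ran from 129 higher and 217 lower without library 3 of WT PF to 1622 and 1621 without library 1. In the interaction they ran from 3 and 2 without library 2 of AMPKβ1-/- vehicle to 133 and 151 without library 1 of WT PF.

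Signs turned with the offset for Clec4d (−0.027), Sirpa (0.097), Lair1 (−0.189) and Clec12a (−0.146) in WT cells, Clec12a in AMPKβ1-/- cells (−0.053), Siglece (0.417), Siglec1 (0.109), Sirpa (0.174), Clec12a (−0.241) and Ptpn6 (0.086) between the genotypes with vehicle, Sirpa (0.19), Pirb (0.136), Lair1 (−0.345), Clec12a (−0.148) and Ptpn6 (0.309) with PF, and Clec12a in the interaction (−0.092). With library size alone they turned for Siglece (0.17), Pilra (0.022) and Lair1 (0.143) with vehicle, Sirpa (0.083), Pirb (0.102) and Ptpn6 (0.103) with PF, and Cd300a in the interaction (0), and with upper quartile scaling for Siglece with vehicle (0.015). Leaving out 1 library turned signs in WT cells for Lair1 (−0.025 to 0.229), in AMPKβ1-/- cells for Siglece (−0.114 to 0.082) and Pilra (−0.048 to 0.067), between the genotypes with vehicle for Siglece (−0.091 to 0.04) and Lair1 (−0.172 to 0.115), with PF for Siglec1 (−0.014 to 0.146), Pirb (−0.086 to 0.002) and Ptpn6 (−0.086 to 0.008), and in the interaction for Lair1 (−0.259 to 0.028) and Clec12a (−0.029 to 0.203). Library size alone placed the median of all genes at 0.183 and 0.146 between the genotypes with vehicle and with PF. The numbers higher and lower with PF in WT cells, 756 and 969, became 1045 and 587 with it and 432 and 260 with the offset. Those between the genotypes with vehicle, 3216 and 3249, became 4296 and 1600 with it and 2967 and 1307 with the offset, and with PF 2613 and 2481 became 3444 and 1359, and 2985 and 1484. Siglece and Pilra kept their direction in WT cells under every alternative, at −1.223 to −1.103 and −1.118 to −1.015 apart from libraries left out. The cause of these moves was not tested.

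Columns of all groups carry numbers 1 to 3. Deviations of same-numbered libraries correlated between −0.17 and 0.317, which with 3 libraries per group cannot settle whether they were paired. No pairing was given, so the numbers were read as names. A replicate block gave 5, 0, 6, 5 and 1 members past the test and took 2 genes past the test, Cd200r1 between the genotypes with PF (0.462, edgeR adjusted p = 0.0274) and Pilrb1 in WT cells (−0.96, edgeR adjusted p = 0.0349), and gave 6 paired receptors and 9 ITIM enzymes. It changed no other call on a member. Over all genes in WT cells, 756 higher and 969 lower became 889 and 1094 with the block.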

Other observations

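With vehicle, the Siglec genes Cd22 and Mag and the receptor genes Cd300e, Cd300lf and Cd300ld differed between the genotypes both with and without the GC and length offset. Such a difference was not particular to Siglec and Cd300 genes. Other genes of the lists also passed in both fits, such as Clec4e at 1.2 and Pira2 at −0.29, which were 0.46 and −0.43 with the offset. Of all genes, 29.7% passed as higher and 30% as lower in this contrast, and 27.4% and 12.1% with the offset. Cd22, a Siglec best known from B cells, was 12.6 ± 0.799 CPM in WT and 4.53 ± 0.833 CPM in AMPKβ1-/- cells with vehicle (SD, n = 3, log2 −1.48, edgeR adjusted p = 2.18e-05, and −1.15 with the offset, edgeR adjusted p = 0.000116). Mag was 5.99 ± 0.333 and 2.89 ± 0.342 CPM (−1.05, edgeR adjusted p = 0.000993, and −0.54 with the offset, edgeR adjusted p = 0.0358). Cd300lf, an inhibitory relative of Cd300a, was 37.5 ± 4.52 and 23.6 ± 2.86 CPM (−0.67, edgeR adjusted p = 0.00022, and −0.41 with the offset, edgeR adjusted p = 0.00194). The activating relatives Cd300e and Cd300ld were higher in AMPKβ1-/- cells, by 1.04 (edgeR adjusted p = 0.000155) and 0.43 (edgeR adjusted p = 0.00654), and by 1.18 and 0.41 with the offset (edgeR adjusted p = 5.6e-05 and 0.00366). Their relatives Cd300lb and Cd300c2 did not pass, at −0.03 (edgeR adjusted p = 0.74) and −0.08 (edgeR adjusted p = 0.333). With the offset these were 0.20 (edgeR adjusted p = 0.00585) and 0.25 (edgeR adjusted p = 0.0043). Clec4a2, another ITIM lectin, was 1.01 higher (edgeR adjusted p = 9.59e-06) but −0.02 with the offset (edgeR adjusted p = 0.88). These genes were chosen after their values were seen.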
